A study of Homo sapiens with 8 samples.

Results

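The genes described are G0S2, an inhibitor of triglyceride breakdown, and 9 genes that act beside it on the lipid droplet: PNPLA2, ABHD5, LIPE, PLIN2, PLIN3, HILPDA, CIDEB, CIDEC and DGAT1. They were picked by name, as the rows of the deposited table that the platform annotation gives 1 of these symbols, current or former. Each of the 10 genes has 1 feature (spot) on the array, and all 10 had a value on every slide, of 18014 genes named on the array. G0S2 was chosen because its fall with MB452 is the largest in these data, so its values are a description and carry no test.

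The study asked how Lactobacillus plantarum MB452, a bacterium taken from a probiotic product, changes gene expression in the intestinal epithelium. The cells were Caco-2, an established line from a human colorectal adenocarcinoma that forms a polarised layer resembling small intestinal enterocytes. Monolayers grown for 18 days were kept for 10 h in M199 medium with non-essential amino acids, either with MB452 at an optical density of 0.9 (MB452) or without bacteria (Control). There were 2 MB452 pools and 2 Control pools, called A and B, each of RNA from 3 wells, and nothing in the labels says that the wells came from separate cultures. Cy5-labelled RNA of each pool met a Cy3-labelled reference on its own slide. The reference is described in the methods as equal RNA from all 12 wells, while the channel's own short label names it a control or MB452 reference sample. Each of the 4 slides was scanned at a high and a low voltage, so each of these genes has 8 values.

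Triglyceride in a cell is stored in lipid droplets, and its release starts with adipose triglyceride lipase, the product of PNPLA2. ABHD5 activates this lipase, while G0S2 and HILPDA bind and inhibit it. Hormone-sensitive lipase (LIPE) takes over at the next step, perilipins coat the droplet, CIDE proteins help droplets to grow or load lipoproteins, and DGAT1 makes triglyceride. Enterocytes use this machinery to hold dietary fat before it leaves the cell in chylomicrons.

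Values are log2 ratios of a pool over the reference, each column centred on its median. A ratio above 0 means more transcript in the pool than in the reference and says nothing of how abundant a gene is, so levels of different genes were not compared. The base of the logarithm is not stated in the sources and was taken as 2, the base limma uses. If it were another, the folds would change and the signs would not. Fold changes are MB452 minus Control. A gene counts as past the threshold at a fold over 1.2 with a moderated p from limma under 0.05 before adjustment. Equal amounts of RNA from whole wells were compared. A smaller share of cells with a transcript and less of it per cell therefore cannot be told apart.

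By this threshold 1.91% of all genes passed (343 of 17969), 0.868% lower and 1.04% higher with MB452, and no gene reached an adjusted p under 0.05 in limma, with 1166 at an unadjusted p under 0.05. The count depended on single pools, with 1685 genes past the threshold when Control pool A was left out and 542 when Control pool B was. Over all features the ratios of the MB452 pools correlated at r = 0.669 and those of the Control pools at r = 0.403. MB452 pool A gave r = 0.613 with Control pool A and 0.453 with Control pool B, and MB452 pool B gave 0.501 and 0.381, so that Control pool A correlated more with either MB452 pool than with the other Control pool. Of the markers of the labelled cell type, 6 of 14 enterocyte and Caco-2 epithelial genes, among them VIL1, CDH1 and EPCAM, had a feature so bright that it saturated the high scan on all 4 slides, against 2.55% of all genes. None of the 7 adipocyte, 5 goblet cell, 5 fibroblast or 4 leukocyte markers did, and none of these marker genes of any type passed the threshold. A saturated spot measures no difference, so this does not show the bright markers to be unchanged. PCK1, an adipocyte marker, is the mean of features that disagreed. A feature with a log2 fold change of 0.76 passed alone, and another at -0.28 did not. CDH1 and EPCAM, with 1 feature each, shared identical values in every column, the low scans included, as did a feature of KRT18. In each low scan 310 to 397 features held 1 repeated value of the column. The low scans may therefore not measure these genes either. FABP1, saturated in every high scan, had a log2 fold change of -0.20 over both scans and -0.39 in the low scan.

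G0S2 was lower in both MB452 pools than in both Control pools, by 2.03-fold on average. HILPDA, the other small inhibitor of the same lipase, was also lower and passed the threshold, at 1.32-fold. The lipase itself, its activator, LIPE, both perilipins, both CIDE genes and DGAT1 did not pass. For all 8 of them the MB452 and Control pools overlapped. Over all genes 19.5% had both MB452 pools below both Control pools, and the share with both above was not counted.

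The promoters of G0S2 and of PLIN2 are given, the first for the gene with the largest fall and the second as the member window with the most motif matches. The windows are the 250 bases before the RefSeq start site in build GRCh38.p14. Capitals mark matches, on either strand, to 4 motifs. ACGTG is a form of the core of the site that hypoxia factors bind. CACGTG is a form of the E-box and holds ACGTG on both strands. AGGTCA is a form of the hexamer that nuclear receptors bind. The TATA box is written TATAAA. Each motif was searched as this exact string, and other forms were not searched. The G0S2 window lies at chr1:209675162-209675411 on the plus strand and that of PLIN2 at chr9:19127493-19127742 on the minus strand, and both sequences read in the direction of transcription.
G0S2: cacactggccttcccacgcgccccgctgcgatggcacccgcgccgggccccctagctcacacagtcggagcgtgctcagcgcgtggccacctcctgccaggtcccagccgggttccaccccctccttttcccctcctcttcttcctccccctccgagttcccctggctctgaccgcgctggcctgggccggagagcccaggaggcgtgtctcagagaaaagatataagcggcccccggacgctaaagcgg
PLIN2: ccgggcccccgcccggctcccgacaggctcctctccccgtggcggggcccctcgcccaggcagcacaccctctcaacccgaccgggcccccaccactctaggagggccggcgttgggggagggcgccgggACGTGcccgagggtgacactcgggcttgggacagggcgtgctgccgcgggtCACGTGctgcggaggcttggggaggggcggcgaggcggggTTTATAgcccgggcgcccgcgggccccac

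The G0S2 window has no capitals, since none of the 4 motifs matched as written. Whether that window holds other forms of these motifs was not tested. The PLIN2 window has ACGTG 3 times, 120, 69 and 68 bases before the start site, of which the last pair are the overlapping strands of 1 CACGTG, and TATAAA on the other strand 29 bases before it. Of 35116 RefSeq windows of this length, 18.5% held ACGTG, 6.34% CACGTG, 12.1% AGGTCA and 10.7% TATAAA, and 63.5% held none of them. RefSeq windows were matched for 8 of the 10 members, 13 windows in all, and 11 of the 13 held no match. The remaining match was AGGTCA in PNPLA2, 239 bases before the start site. No window was used for HILPDA or DGAT1. A match is a string of letters and not a measured binding site.

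G0S2 is the member on which the choice of genes rests. In MB452 pool A its log2 ratio was -0.0054 in the high and -0.43 in the low scan, and in MB452 pool B it was -0.67 and -0.75. In Control pool A it was 0.90 in the high and 0.59 in the low scan, and in Control pool B it was 0.48 and 0.28. Every MB452 value lay below 0 and below every Control value, and every Control value lay above 0. The value of MB452 pool A in the high scan was 0.011 before centring. Averaged over scans, MB452 pools A and B were at -0.22 and -0.71, against 0.74 and 0.38 in Control pools A and B.

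The G0S2 means were -0.46 ± 0.35 with MB452 and 0.56 ± 0.26 in Control (log2 ratio, SD, n = 2 pools each), a log2 fold change of -1.02 (moderated SE 0.20). On the linear scale MB452 pools held 0.726 times and Control pools 1.47 times the reference. These ratios sum to 2.20, against a median of 2.02 over all genes, where a reference of equal parts would give about 2. The pools of a group differed from each other by 0.49 with MB452 and by 0.37 in Control, each smaller than the difference between the group means. MB452 pool B gave the lower G0S2 value of its group and Control pool A the higher.

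The scans agreed on the size of the G0S2 fall and not on the ratios themselves. The log2 fold change was -1.02 in either scan. On all 4 slides the high scan read above the low scan, by 0.083 to 0.42, where the median size of such a gap over all features was 0.057 to 0.059. The gap was largest in MB452 pool A. Whether it has a part in the size of the fall was not tested. No G0S2 value was at the repeated value that saturated spots share.

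By rank G0S2 had the largest fall of 17969 genes, and its feature the largest of 42142 features, as the choice fixed. The genes next to it in that order were GPR62, an orphan receptor, with a log2 fold change of -0.83, ARRDC4, an arrestin-like protein, with -0.72, and ADCK5 with -0.65. Leaving out 1 pool at a time moved the G0S2 value between -1.27 and -0.78. The plot of G0S2 and HILPDA under each setting shows both ends of this range.

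**Figure D1:**
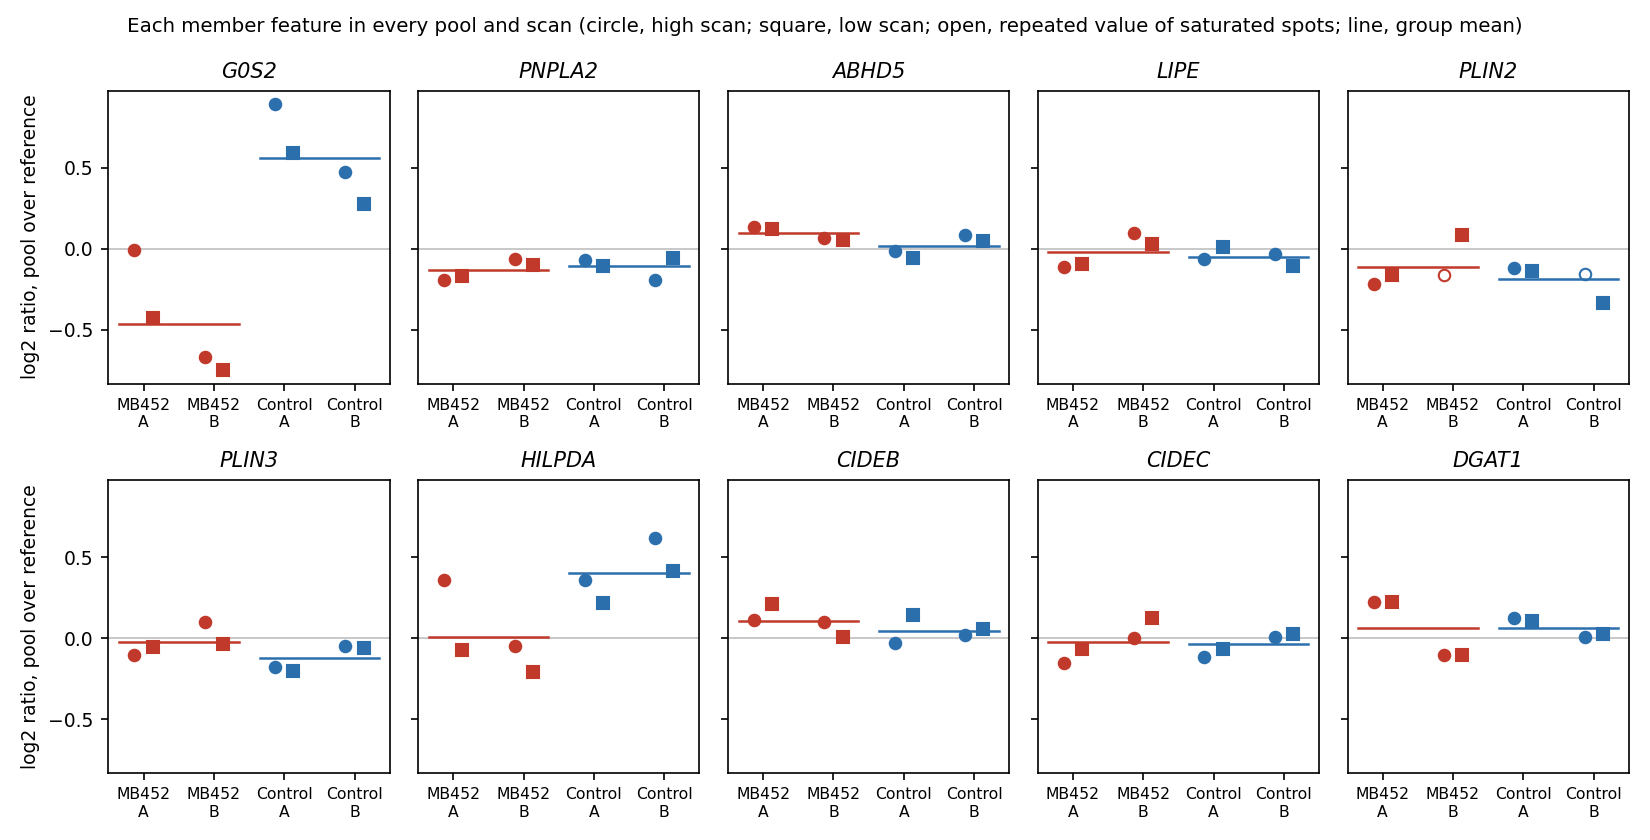
Log2 ratio of pool over reference (vertical axis) for the 10 members in MB452 pools A and B (red) and Control pools A and B (blue), with circles for the high scan, squares for the low scan, open circles for the repeated value of saturated spots and lines for group means. G0S2 sits between -0.75 and -0.0054 with MB452 and between 0.28 and 0.90 in Control, while the 8 members that did not pass overlap between groups.

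HILPDA, an inhibitor of the same lipase that hypoxia is known to induce, moved in the direction of G0S2 by a smaller amount. Its log2 ratio was 0.36 in the high and -0.071 in the low scan of MB452 pool A, and -0.048 and -0.21 in MB452 pool B. Control pool A gave 0.36 and 0.21, and Control pool B gave 0.62 and 0.41. In the high scan MB452 pool A and Control pool A were at the same value to 2 decimals, and in the low scan both MB452 pools were below both Control pools.

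Averaged over scans, HILPDA was at 0.15 and -0.13 in MB452 pools A and B, against 0.29 and 0.52 in Control pools A and B, with no overlap. Among all genes 19.5% had both MB452 pools below both Control pools. The means were 0.0075 ± 0.19 with MB452 and 0.40 ± 0.16 in Control (SD, n = 2 pools each). The log2 fold change was -0.40 (moderated SE 0.12, 95% interval -0.71 to -0.083), rank 114 among falls. HILPDA passed the threshold on unadjusted p, and its adjusted p over all genes in limma was 0.712. It was 1 of 9 members tested to pass, where 0.868% of all genes passed as lower. With the high scan alone the log2 fold change was -0.33 and no longer past the threshold, and it did not pass either when Control pool B (-0.28) or MB452 pool B (-0.26) was left out. In the fit with random slide blocks its fold change was the same with a moderated SE of 0.18, and HILPDA did not pass. As for G0S2, the high scan of HILPDA read above the low scan on all 4 slides, by 0.15 to 0.43.

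**Figure D2:**
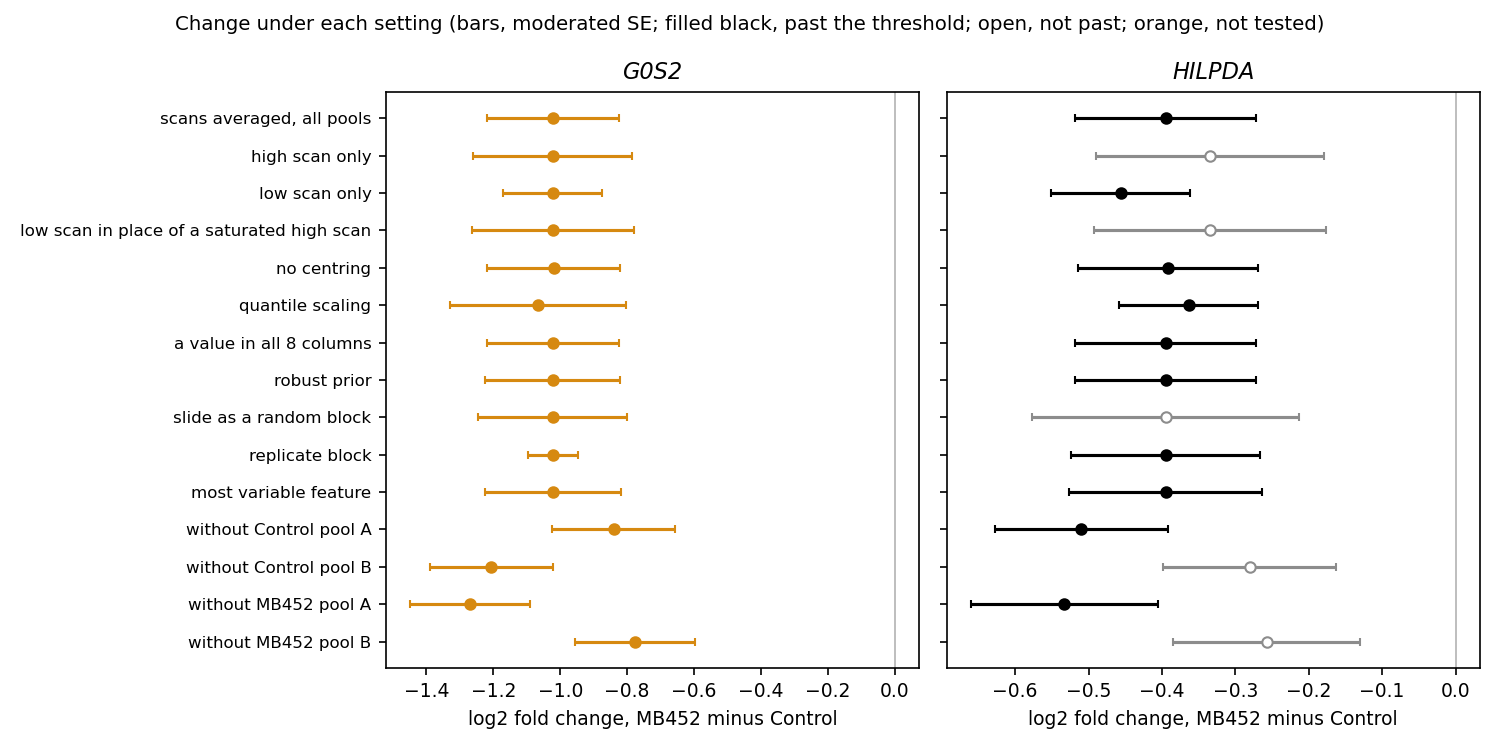
Log2 fold change, MB452 minus Control, of G0S2 (left) and HILPDA (right) under each processing setting and with each pool left out, with moderated standard errors as bars. G0S2 (orange, not tested) stayed between -1.27 and -0.78, and HILPDA was past the threshold where filled black and not past where open, as with the high scan alone at -0.33.

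PNPLA2, the lipase that G0S2 and HILPDA inhibit, had the log2 ratios -0.18 and -0.081 in MB452 pools A and B, against -0.087 and -0.12 in Control pools A and B. The Control pools lay between the MB452 pools. Its log2 fold change was -0.024 (moderated SE 0.062, adjusted p in limma 0.946), with a 95% interval of -0.18 to 0.13. ABHD5, the activator of the lipase, was at 0.13 and 0.061 in MB452 pools A and B, against -0.034 and 0.066 in Control pools A and B. Its log2 fold change was 0.080 (moderated SE 0.065, adjusted p in limma 0.824), with a 95% interval of -0.086 to 0.25. MB452 pool B and Control pool B of ABHD5 were nearly level, and Control pool A stood lowest.

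LIPE, which cleaves diacylglycerol, was at -0.10 and 0.065 in MB452 pools A and B, against -0.026 and -0.068 in Control pools A and B. The MB452 pools enclosed the Control pools here too. The log2 fold change of LIPE was 0.029 (moderated SE 0.075, adjusted p in limma 0.947), with a 95% interval of -0.16 to 0.22.

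PLIN2, the perilipin found on droplets of most cell types, carried a limit of its own. Its log2 ratios in MB452 pool A were -0.21 in the high and -0.16 in the low scan, and in MB452 pool B they were -0.16 and 0.083. In Control pool A they were -0.12 and -0.14, and in Control pool B -0.16 and -0.34. The high scan values of both B pools were the repeated value of saturated spots, so that only the low scan measured PLIN2 there. In that scan the log2 fold change was 0.20, against -0.050 in the high scan and 0.074 over both (moderated SE 0.079, 95% interval -0.13 to 0.28, adjusted p in limma 0.847). PLIN2 was the member whose scans differed most in fold change, and neither scan put it past the threshold.

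PLIN3, which joins newly formed droplets from the cytosol, was at -0.080 and 0.032 in MB452 pools A and B, against -0.19 and -0.055 in Control pools A and B. Its log2 fold change was 0.099 (moderated SE 0.076, 95% interval -0.095 to 0.29), the most positive of the members, with an adjusted p in limma of 0.823. MB452 pool A lay below Control pool B, so the groups overlapped.

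CIDEB, which in liver and intestine helps to load lipoproteins with fat, was at 0.16 and 0.055 in MB452 pools A and B, against 0.056 and 0.038 in Control pools A and B. The log2 fold change was 0.060 (moderated SE 0.063, 95% interval -0.099 to 0.22, adjusted p in limma 0.844). CIDEC, a protein of droplet fusion best known from fat cells, was at -0.11 and 0.063 in MB452 pools A and B, against -0.093 and 0.016 in Control pools A and B. In both groups pool A of CIDEC was the lower. Its log2 fold change was 0.014 (moderated SE 0.083, 95% interval -0.20 to 0.23, adjusted p in limma 0.979).

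DGAT1, which catalyses the last step of triglyceride synthesis, was at 0.22 and -0.10 in MB452 pools A and B, against 0.11 and 0.016 in Control pools A and B. The MB452 pools differed from each other by 0.33, and each of them gave the same value in both scans to 2 decimals. The log2 fold change was -0.0048 (moderated SE 0.118, adjusted p in limma 0.998), with the widest 95% interval of the 8 members that did not pass, -0.30 to 0.30. A 1.2-fold change in either direction therefore lies inside the interval of DGAT1.

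Across these 9 members 6 fold changes were positive and 3 negative, with a median log2 fold change of 0.029, against -0.0093 over all genes tested. The feature fit, in which each spot stands alone among 42142 and 2.10% passed, gave the same single member past the threshold. The intervals of PNPLA2, ABHD5, LIPE, CIDEB and CIDEC excluded a 1.2-fold change in both directions, and those of PLIN2, PLIN3 and DGAT1 did not. They rest on 2 pools a group.

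**Figure D3:**
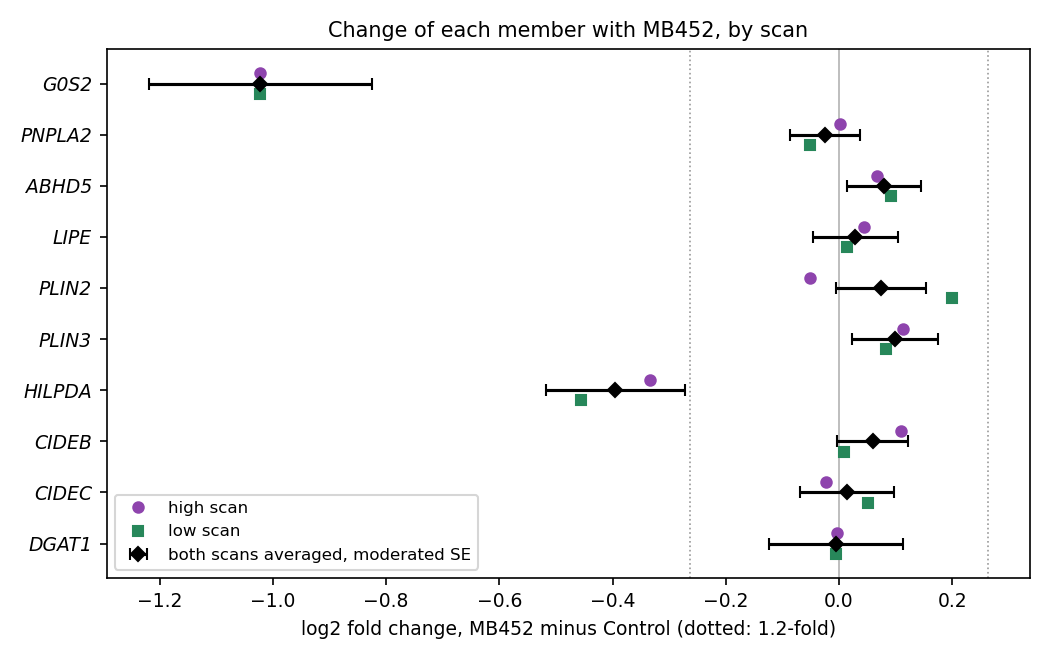
Log2 fold change, MB452 minus Control, of each member (horizontal axis) over both scans with its moderated standard error (black diamonds), by high scan (purple circles) and by low scan (green squares), with dotted lines at 1.2-fold. G0S2 is at -1.02 in both scans, HILPDA at -0.33 and -0.46, and PLIN2 changes side between scans.

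The genes whose 8 columns lay nearest to those of G0S2 were found by root mean square difference in log2 ratio, over 17937 genes with a value in every column. The nearest was ARRDC4 at 0.266, followed by FABP5, a cytosolic carrier of fatty acids, at 0.294. BIRC5, a protein of cell division, was at 0.330, UFD1, a partner in protein extraction from membranes, at 0.365, and PCNA, the clamp of DNA replication, at 0.367. The median over all genes was 0.584. HILPDA had rank 33 at 0.418 and DGAT1 rank 2454, and the other members lay further off than the median gene. The columns share slides and a reference, so likeness over them is a description.

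ARRDC4 and FABP5 show what the likeness consists of. In the MB452 columns ARRDC4 ranged from -0.53 to -0.23, against 0.22 to 0.55 in the Control columns. FABP5, the mean of 4 features, had -0.34 to -0.17 in the MB452 columns and 0.26 to 0.40 in the Control columns. Both genes had all MB452 columns below 0 and all Control columns above it. By group means, a looser rule than every column, 15.6% of all genes were below 0 with MB452 and above 0 in Control. The share by every column was not counted, and both genes were picked for likeness to G0S2 over these columns.

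Other genes of droplet metabolism, and targets of 2 kinds of regulator, were read from 5 lists, each beside the 1.04% of all genes that passed as higher and the 0.868% as lower. Of 22 further genes of lipolysis and its control, 1 was higher, none was lower and 21 did not pass, with a median log2 fold change of -0.048. The gene that rose was MGLL, the lipase that cleaves monoacylglycerol at the end of lipolysis. MGLL was at 0.075 and 0.20 in MB452 pools A and B, against -0.071 and -0.23 in Control pools A and B, with a log2 fold change of 0.29 (moderated SE 0.083, adjusted p in limma 0.696). Its fold change was 0.42 in the high and 0.16 in the low scan, where it did not pass, and it did not pass without Control pool B (0.21) or MB452 pool B (0.23), or in the fit with random slide blocks.

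Of 24 droplet proteins tested, 1 was higher, none was lower and 23 did not pass, with a median of -0.050. SQLE, which oxidises squalene in cholesterol synthesis and can sit on droplets, had a log2 fold change of 0.30 (moderated SE 0.094, adjusted p in limma 0.712), with 0.043 and 0.27 in MB452 pools A and B, against -0.18 and -0.093 in Control pools A and B. SQLE did not pass with the high scan alone (0.22), in the fit with random slide blocks, or when Control pool A (0.25) or MB452 pool B (0.18) was left out. PLIN1, PLIN4 and PLIN5, the other perilipins, are in both of these lists, and none passed.

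Of 21 genes of triglyceride and sterol ester synthesis, 1 was higher, none was lower and 20 did not pass, with a median of -0.023. LPIN2, which makes diacylglycerol from phosphatidic acid, was at 0.20 and 0.21 in MB452 pools A and B, against -0.014 and -0.18 in Control pools A and B. Its log2 fold change was 0.30 (moderated SE 0.074, adjusted p in limma 0.637), and it did not pass with the low scan alone (0.24) or without Control pool B (0.22). The 2 features of LPIN2 gave 0.50 and 0.10, and only the first passed.

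Of 15 genes listed as PPAR targets, 1 was higher, 1 was lower and 13 did not pass, with a median of -0.063. Among the 13 is FABP1, saturated in every high scan, which there measures no difference. Its log2 fold change was -0.20 over both scans and -0.39 in the low scan. In this list 1 gene was higher and 2 were lower with the low scan in place of saturated high scans. With the low scan alone 1 was higher and 3 were lower. CREB3L3, a transcription factor of liver and intestine that acts in lipid metabolism, had a log2 fold change of 0.39 (moderated SE 0.067, adjusted p in limma 0.637), with 0.23 and 0.24 in MB452 pools A and B, against -0.22 and -0.093 in Control pools A and B. Its 2 features disagreed, at 0.75 and 0.043. TXNIP, a regulator of redox state and glucose uptake, had a log2 fold change of -0.36 (moderated SE 0.104, adjusted p in limma 0.696), with 0.052 and -0.22 in MB452 pools A and B, against 0.32 and 0.22 in Control pools A and B.

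TXNIP has 3 features, and 1 of them carried the fall. That feature had a log2 fold change of -0.998, with 0.35 and -0.14 in the high and low scan of MB452 pool A and -0.59 and -0.85 in MB452 pool B. In Control pool A it had 0.92 and 0.68, and in Control pool B 0.69 and 0.47. The other features of TXNIP were at -0.014 and -0.054 and did not pass. The gene did not pass without MB452 pool B, at -0.22.

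Of 17 hypoxia target genes, 1 was higher, 2 were lower and 14 did not pass, with a median of 0.027. ANKRD37, an ankyrin repeat protein, fell by 0.64 on the log2 scale (moderated SE 0.151, adjusted p in limma 0.637), with 0.033 and -0.13 in MB452 pools A and B, against 0.37 and 0.80 in Control pools A and B. ADM, the vasodilator peptide adrenomedullin, was at -0.066 and -0.16 in MB452 pools A and B, against 0.20 and 0.13 in Control pools A and B, and fell by 0.28 (moderated SE 0.064, adjusted p in limma 0.637). KDM3A, a histone demethylase, was at 0.32 and 0.36 in MB452 pools A and B, against 0.0097 and -0.083 in Control pools A and B, and rose by 0.38 (moderated SE 0.062, adjusted p in limma 0.637). All 3 features of KDM3A passed, while the gene did not in the fit with random slide blocks. ANKRD37 did not pass without MB452 pool B (-0.55), and ADM did not pass with the high scan alone (-0.14), in the fit with random slide blocks, or when Control pool A (-0.25) or MB452 pool B (-0.23) was left out. The high scan of ADM held the repeated value of saturated spots in both B pools, and by the low scan alone ADM fell by 0.42 and passed. VEGFA, a growth factor of blood vessels, did not pass (log2 fold change 0.19, moderated SE 0.115, adjusted p in limma 0.814), and of its 4 features, at 0.57, 0.16, 0.073 and -0.050, only the first passed. In this list 6 genes had a feature saturated in every high scan, which there measures no difference and can make the fold change over both scans smaller. Some of these features also shared 1 value in the low scan of MB452 pool B, and some did in that of Control pool B. In the low scan of MB452 pool A, a feature among them held the value that CDH1 and EPCAM share. For such features the low scan too may measure no difference. With the low scan alone 1 gene of this list was higher and 3 were lower.

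Counted once each, 96 of 104 listed genes were tested, of which 5 were higher, 3 were lower and 88 did not pass, with a median of -0.045 against -0.0093 over all genes. Among all genes 1.91% passed, and no test was made of the lists. The 8 that passed are 1 to 3 in each list, and none reached an adjusted p under 0.05 in limma. Without Control pool A 13 listed genes passed and without MB452 pool B 5 did. With the slide as a random block 4 passed, and MGLL, SQLE, ADM and KDM3A did not.

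**Figure D4:**
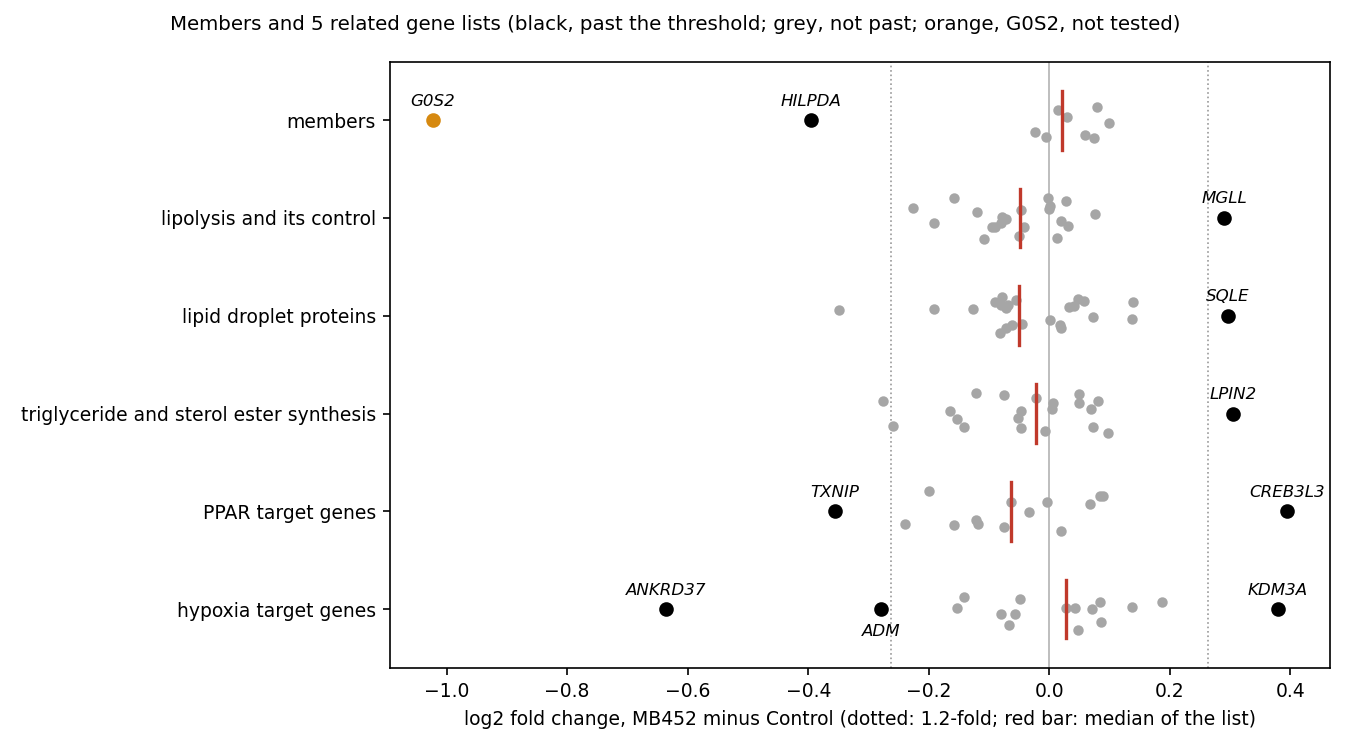
Log2 fold change, MB452 minus Control (horizontal axis), of the members and of 5 gene lists (vertical axis), with genes past the threshold in black and named, other genes in grey, G0S2 in orange without a test, red bars at each list's median and dotted lines at 1.2-fold. G0S2 at -1.02 lies below ANKRD37 at -0.64, the lowest gene of the lists, and the list medians lie between -0.063 and 0.027.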

How the data were processed

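RNA from 2 MB452 and 2 Control pools was hybridised against a common reference on 4 two-colour Agilent whole human genome arrays. The authors scanned each slide at 2 voltages, read the scans in GenePix, took out poor and control spots and left the background in. Their methods combine the scans into 1 set, in which spots near saturation took values derived from the low scan. Here the 2 scans were averaged instead. Loess within arrays was run in limma (version: not given in the sources used here). As deposited, the values are log2 ratios (Cy5 over Cy3) in 8 columns, 1 for each scan. The methods also state the threshold of fold and p used here. No intensities were used, so no value gives a feature's signal over background. A value repeated over many features of a column was taken as that of saturated spots.

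In limma 3.58.1 under R 4.3.3, columns were centred on their medians (0.0046 to 0.017), the scans of a slide averaged, and the features measured on every slide fitted with lmFit and eBayes, without covariates. Genes are means of features, named through the platform annotation and the RefSeq table of GRCh38.p14 (28992 of 29033 features with 1 symbol, 97 with several and 15160 without). P-values were Benjamini-Hochberg adjusted over all genes or features. They measure the spread between these pools and over genes. Intervals use the moderated degrees of freedom. The fit was tested on simulated slides.

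The members and lists were chosen with earlier results of these data known. Named genes are all members, up to 4 genes past the threshold in each list and the 5 genes nearest to G0S2. Outside this rule are those next to G0S2 in rank, BSCL2, ACSL1, TMT1A, VPS13C, PLIN1, PLIN4, PLIN5, VEGFA and the markers. Genes outside the rule were named after their values were seen. Alternatives covered the scans, scaling, missing values, the prior, blocks, the fold minimum, the choice of feature and each pool left out. Genes listed without a match were not analysed here.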

Additional observations from a re-analysis of the deposited data

How the results depend on the processing

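Under settings other than leaving out a pool, 5 values of the members tested turned sign and 4 changed the call. The blocks, the prior, the fold minimum, the choice of feature and the rule on missing values leave these fold changes the same by construction. With the high scan alone CIDEC was at -0.023, PLIN2 at -0.050 and PNPLA2 at 0.0022, and the same values held for CIDEC and PNPLA2 with the low scan in place of saturated high scans. HILPDA lost its call when only the high scan was used or the low scan replaced saturated ones (-0.33 in both), and with slides as a random block or at a fold over 1.5 (-0.40 in both). Past the threshold were 518 genes with the low scan in place of saturated high scans, 583 with the most variable feature of each gene, and at a fold over 1.5 7 genes, 22 features and 1 listed gene. With the slide as a random block 4 listed genes passed. More genes were lower than higher with that block (154 higher, 220 lower) and with the low scan alone (152 higher, 239 lower), against 187 higher and 156 lower. With the high scan alone 314 genes were higher and 178 lower, and the most variable feature gave 367 higher and 216 lower. The cause was not tested.

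The letters A and B are shared between the groups, but nothing in the labels says that they pair the pools, and the deviations of the A pools from their group means correlated at -0.0157 over features. With a replicate block 446 genes (192 higher, 254 lower), 1061 features and 8 listed genes passed, and the fold changes of the members stood as without it (HILPDA -0.40, past the threshold, G0S2 -1.02).

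With each pool left out in turn, a group with 1 pool is assumed to vary like the other. The counts ranged from 376 to 1685 genes, 1166 to 4517 features and 5 to 13 listed genes. Fold changes ranged from -1.27 to -0.78 for G0S2, -0.53 to -0.26 for HILPDA, -0.073 to 0.024 for PNPLA2, 0.030 to 0.13 for ABHD5, -0.054 to 0.11 for LIPE, 0.00050 to 0.15 for PLIN2, 0.030 to 0.17 for PLIN3, 0.0080 to 0.11 for CIDEB, -0.074 to 0.10 for CIDEC and -0.17 to 0.16 for DGAT1. None of the 9 members tested reached an adjusted p under 0.05 in limma with 2 pools a group. A saturated high scan bounds brightness only.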

Other observations

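Picked after their values were seen, BSCL2 and ACSL1 stood high in Control pool B. BSCL2, the gene for seipin, which shapes new lipid droplets, was at -0.086 and -0.060 in MB452 pools A and B, against -0.22 and 0.77 in Control pools A and B. ACSL1, which activates fatty acids, was at -0.099 and 0.051 in MB452 pools A and B, against -0.12 and 0.63 in Control pools A and B. Both scans of Control pool B agreed, at 0.77 and 0.77 for BSCL2 and 0.60 and 0.65 for ACSL1. Neither gene passed the threshold (adjusted p in limma 0.827 for each), and each rests on 1 feature. This was not particular to BSCL2 and ACSL1. In the high and low scan of Control pool B a feature of TMT1A had 0.92 and 0.85. A feature of VPS13C had 0.86 and 0.76 there, and a feature of VIM 0.59 and 0.72. Other features of TMT1A, VPS13C and VIM were at 0.16 or below there. How many features share this was not counted.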
